A study of Mus musculus with 5 samples.

Results

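The genes described here are 6 secreted regulators of metabolism, Fgf21, Angptl4, Angptl8, Gdf15, Inhba and Inhbe. They were taken by symbol from the 32285 genes of a single-cell RNA-seq count matrix of mouse hepatocytes, and all 6 were found. Liver cells of male wild-type C57BL/6J mice on normal chow were collected at 5 times, with 1 library per time. The fed library (0 h) came from mice trained for 3 days to a 16 h overnight fast and an 8 h daytime feeding window and then fed for 4 h with 20% sucrose water. The other 4 libraries came from mice with the same training and feeding that were then fasted for 4, 8, 16 or 24 h. Age and the number of animals behind a library are not given in the labels. Collection fell at clock hours 13, 17, 21, 5 and 13 for 0, 4, 8, 16 and 24 h, so fasting time and time of day cannot be told apart except between 0 h and 24 h.

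FGF21 is a hormone of the fasted and stressed liver that acts through FGF receptors together with the coreceptor beta-Klotho, and GDF15 is a stress hormone that acts on the hindbrain receptor GFRAL with its partner RET. ANGPTL4 and ANGPTL8 steer triglyceride between tissues by inhibiting lipoprotein lipase, ANGPTL4 as a fasting signal under PPAR-alpha and ANGPTL8 as a feeding signal. Inhba and Inhbe encode the subunits of activin A and activin E, ligands of the TGF-beta family, and activin E from the liver is known to restrain lipolysis in fat tissue.

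Upstream sequences are shown first because Fgf21, Angptl8 and Inhbe share 1 short element that the list was not chosen on. RefSeq promoter windows (GRCm38.p6) were found for 5 of the 6 genes, all but Angptl4, and the 250 bases before each annotated start were searched on both strands. The letters TGATGCAA, the composite element bound by ATF4 with C/EBP proteins, were found upstream of Fgf21, Angptl8 and Inhbe, and in 0.791% of all 32851 windows of that length. The windows of Fgf21 and Angptl8 are printed 5′ to 3′ on the strand of the gene, in lower case, with this element or its reverse complement in capitals.

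Fgf21 (chr7:45615491-45615740, minus strand): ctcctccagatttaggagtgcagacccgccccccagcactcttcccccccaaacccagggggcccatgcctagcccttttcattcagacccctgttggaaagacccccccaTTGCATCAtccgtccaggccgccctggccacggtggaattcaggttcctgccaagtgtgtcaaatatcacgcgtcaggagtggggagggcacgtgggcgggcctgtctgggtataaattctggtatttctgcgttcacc

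Angptl8 (chr9:21835260-21835509, plus strand): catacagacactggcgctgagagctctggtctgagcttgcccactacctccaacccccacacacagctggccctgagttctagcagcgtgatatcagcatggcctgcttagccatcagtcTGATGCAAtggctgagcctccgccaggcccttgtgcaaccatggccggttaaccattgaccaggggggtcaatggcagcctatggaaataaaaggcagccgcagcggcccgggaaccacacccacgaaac

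To set the 3 elements side by side, 30 bases around each are given below on the strand that reads TGATGCAA, again with the element in capitals.

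Fgf21 (chr7:45615611-45615640): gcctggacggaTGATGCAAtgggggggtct

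Angptl8 (chr9:21835369-21835398): agccatcagtcTGATGCAAtggctgagcct

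Inhbe (chr10:127352011-127352040): gtggacatgcaTGATGCAAgaaagaggatg

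The element lay 139 to 132 bases before the start of Fgf21, 130 to 123 before that of Angptl8 and 181 to 174 before that of Inhbe. The Inhbe window lies inside the untranslated part of a longer Inhbe transcript in GENCODE M21, and the Angptl8 window lies in Dock6, on the opposite strand and outside its exons. CACGTG, an E-box of the type bound by carbohydrate-responsive and clock factors, was found in the Fgf21 window and in the second of 2 Gdf15 windows (6.02% of all windows), and overlapped no TGATGCAA. That second window belongs to an inner start and its match lies in the first exon and untranslated part of the Gdf15 gene as annotated; the window before the gene's outer start held none. The direct repeat bound by PPAR-alpha (0.0335% of windows), TGANTCA (AP-1, 6.75%), TGACGTCA (a cAMP response element, 1.55%) and the palindromic glucocorticoid response element (0.00913%) were found in none of the members' windows. A match is a description of letters, not of a bound site.

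Each library held 10000 barcodes and 40002260 to 68330252 UMIs (unique molecular identifiers, which count captured transcripts). The hepatocyte filter (1000 or more UMIs, 500 or more genes and 2 to 30% mitochondrial UMIs) kept 7826, 4567, 2716, 9125 and 4576 barcodes at 0, 4, 8, 16 and 24 h, 28810 of 50000 in all. These barcodes carried 33521626 to 45532684 non-mitochondrial UMIs per library, the denominator of every CPM value (UMIs per 1000000). At 8 h only 3325 of 10000 barcodes had enough UMIs and genes, and at 4 and 24 h 5345 and 5400 barcodes had under 2% mitochondrial UMIs. Cells at 0 and 16 h were shallow, with medians of 4702.5 and 3756 non-mitochondrial UMIs, against 9399, 13532 and 7201.5 at 4, 8 and 24 h. The 7 hepatocyte markers summed to 100013 to 120617 CPM in every library. Marker sums of the 7 other cell type lists were low: 94.7, 13.6, 12.8, 33.4 and 20.1 CPM for endothelial cells (all 10 markers above 0 in every library), 46.6, 3.65, 0.44, 7.13 and 5.43 for macrophages at 0, 4, 8, 16 and 24 h (6 of 10 at 0 at 8 h), 1.63 to 29.8 for stellate cells (3 of 10 at 0 at 4 h) and 164 to 301 for cholangiocytes (4 of 7 at 0 at 16 h). Series of 5 values below run in the order 0, 4, 8, 16 and 24 h. Lymphocyte, erythroid and neutrophil markers summed to 0.48 to 10.2, 24.5 to 67.0 and 0.13 to 1.01 CPM. Among filtered barcodes, 73 of 28737 barcode sequences occurred in more than 1 library, and doublets were not called. Endothelial and macrophage sums were highest at 0 h and second at 16 h, as Angptl8 and Inhba were. Without the barcodes that carried markers of other cell types, or endothelial markers alone, the number of members changed against fed was the same in all 4 comparisons.

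With 1 library per time there is no test between times. Intervals are exact 95% intervals that cover counting error only, and each difference describes libraries, not animals. A gene counts as changed where it differed at least 2-fold with 10 CPM or more in either library, and the 4 comparisons with fed share the fed library. Of the 6 genes, 4 reached 10 CPM in the 4 h comparison and all 4 had changed, against 9.71% of all 7299 genes tested (1 higher against 3.67% of all genes, 3 lower against 6.04%). In the 8 h library 4 of 4 had changed against 16.9% of all genes (1 higher against 5.68%, 3 lower against 11.2%). In the 16 h library 4 of 6 had changed against 6.47% (2 higher against 2.87%, 2 lower against 3.60%). In the 24 h library 3 of 4 had changed against 13.5% (1 higher against 4.73%, 2 lower against 8.77%). Between fasted libraries, 1 of 3 tested members was higher in 8 h than in 4 h and none lower, against 3.18% of all genes changed (1.12% higher, 2.06% lower). From 8 to 16 h, 4 of 6 were higher and 1 lower, against 17.8% (10.5% higher, 7.25% lower), and from 16 to 24 h, 4 of 6 were lower and none higher, against 11.0% (5.19% higher, 5.78% lower). The median log2 ratio over the tested members was -2.84, -3.06, 0.65 and -1.99 at 4, 8, 16 and 24 h, and over all genes tested -0.09, -0.08, -0.02 and -0.10. Scaling by TMM moved the median of all genes to 0.12, 0.16, 0.04 and 0.08, and the share of changed genes that were higher from 37.8% to 63.0% (4 h) and 33.6% to 57.9% (8 h). At 24 h, 348 higher and 645 lower genes became 525 and 438. The number of members higher and lower was the same under TMM at 4, 8 and 24 h, and at 16 h Gdf15 joined the higher genes.

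**Figure D1:**
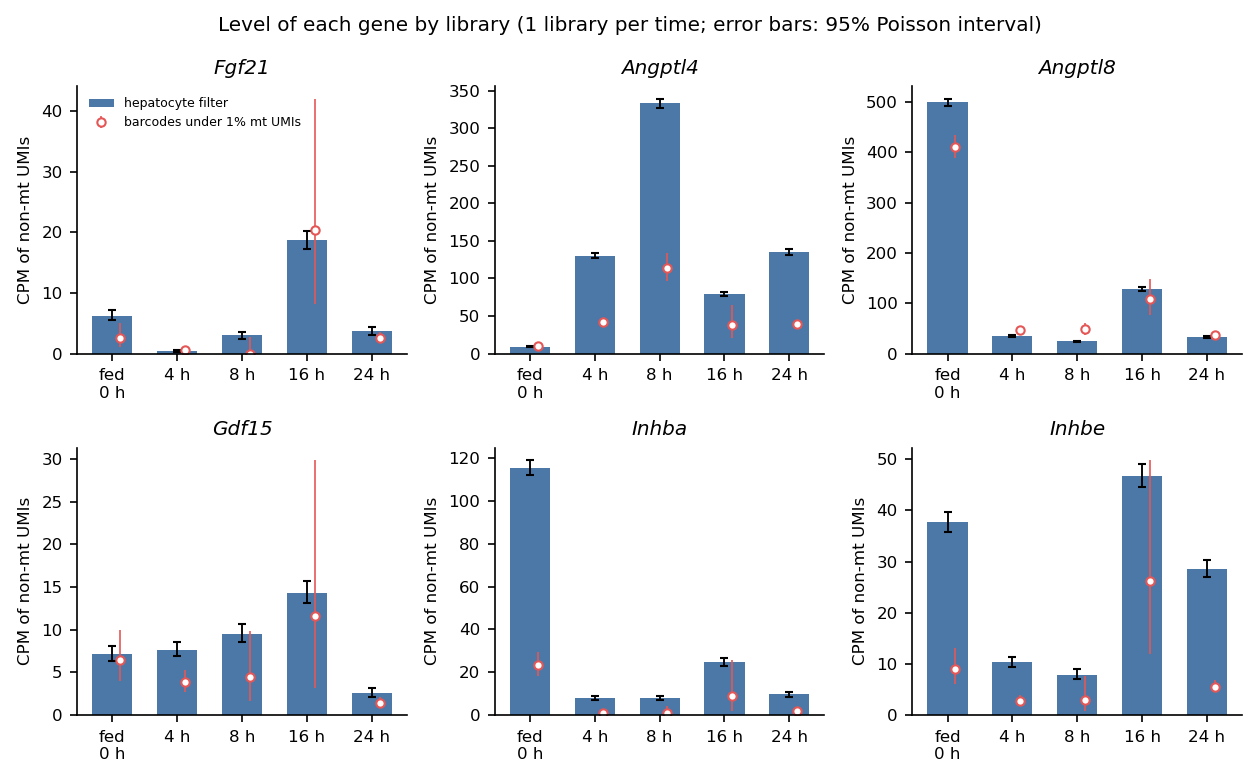
Level of each gene (y axis, CPM of non-mitochondrial UMIs, linear from 0) in each library (x axis); blue bars are barcodes of the hepatocyte filter, error bars exact 95% Poisson intervals, and open red points barcodes under 1% mitochondrial UMIs of the same library with the same interval. Angptl4 was lowest at 0 h (9.34 CPM) and highest at 8 h (333 CPM), Angptl8 and Inhba were highest at 0 h, and Fgf21, Gdf15 and Inhbe were highest at 16 h.

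Angptl4 (ENSMUSG00000002289, chr17:33773750-33781830, minus strand, GRCm38), the lipoprotein lipase inhibitor of the fasted state, was the 1 member that was higher than fed in all 4 fasted libraries. Its level was 9.34, 130, 333, 79.2 and 136 CPM. The fed library was far below every other, the 8 h library stood above all, and 4 and 24 h lay close together (fold 1.04). Against fed it was 13.9-fold higher after 4 h of fasting (interval of the log2 ratio 3.65 to 3.96) and 35.7-fold higher after 8 h (log2 5.16, 5.00 to 5.31). The excess was 8.48-fold after 16 h (3.08, 2.92 to 3.25) and 14.5-fold after 24 h (3.86, 3.70 to 4.02). Between successive fasted libraries it was 2.56-fold higher at 8 h than at 4 h, 4.21-fold lower at 16 h than at 8 h and 1.71-fold higher at 24 h than at 16 h.

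A larger share of cells held an Angptl4 UMI in the fasted libraries than in the fed library. After thinning every cell to 1000 non-mitochondrial UMIs, the share of cells with an Angptl4 UMI was 0.86% (fed, interval 0.66 to 1.09), 11.0%, 29.0% (8 h, 27.3 to 30.7), 7.92% and 11.2%. Without thinning the shares were 4.37%, 58.3%, 89.2%, 24.4% and 54.8%, and the cell with most Angptl4 UMIs held 17, at 8 h. For comparison, barcodes under 1% mitochondrial UMIs of the same libraries (low-mitochondrial barcodes) showed 1.15%, 4.05%, 9.39%, 4.19% and 4.15% at the same thinned depth. Whether they hold only RNA from outside cells was not tested. At 4, 8 and 24 h the hepatocyte share lay above theirs with no overlap of intervals. At 16 h the intervals overlapped (7.37 to 8.50 and 1.83 to 8.09), and at 0 h the hepatocyte share was the lower value, so the fed share was not above theirs.

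Angptl8 (ENSMUSG00000047822, chr9:21835510-21837347, plus strand), the feeding-induced regulator of lipoprotein lipase, ran the other way. It lies within Dock6, which is on the opposite strand, shares no exon with it, and whether the counting used strand is not given in the sources used here. Its level was 499, 35.4, 23.9, 128 and 32.5 CPM. The fed library was highest, 16 h was second, and the other 3 were low and close together. It was 14.1-fold below fed after 4 h (log2 -3.82, -3.89 to -3.74) and 20.8-fold below after 8 h (-4.38, -4.49 to -4.28). The deficit was 3.89-fold after 16 h (-1.96, -2.01 to -1.91) and 15.4-fold after 24 h (-3.94, -4.03 to -3.86). The 16 h library exceeded 8 h by 5.36-fold and 24 h by 3.95-fold.

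The thinned share of hepatocytes with a UMI was 38.2%, 3.57%, 2.19%, 12.1% and 3.45% (79.3%, 25.6%, 22.8%, 34.1% and 20.5% unthinned). In barcodes under 1% mitochondrial UMIs it was 31.9%, 4.26%, 4.98%, 7.33% and 3.51%. In the 118 barcodes of the fed library with endothelial markers, a cell type that should lack the gene, of which 67 also passed the hepatocyte filter, it was 14.4% (8.62 to 22.1; median depth 1794.5 non-mitochondrial UMIs against 4702.5 in hepatocytes). The hepatocyte shares at 4, 8 and 24 h were at or below those of the low-mitochondrial barcodes. Whether those barcodes hold only RNA from outside cells was not tested, so these shares are not read as detection above background. At 16 h the hepatocyte interval (11.4 to 12.8) overlapped theirs, and at 0 h the hepatocyte share was above that of the low-mitochondrial barcodes with no overlap.

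Apoa5, which promotes lipoprotein lipase activity, was 2-fold or more above fed at 24 h (827, 1392, 1545, 1077 and 1810 CPM, log2 1.13 at 24 h). Lipg, endothelial lipase, was 31.9, 4.13, 8.13, 25.9 and 16.4 CPM, 2-fold or more below fed at 4 and 8 h. Lpl itself, the lipase that both ANGPTL proteins inhibit, was at 3.33 CPM or less in every library.

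Fgf21 (ENSMUSG00000030827, chr7:45613886-45615490, minus strand) was scarce and highest in the 16 h library. Its level was 6.27, 0.42, 2.99, 18.7 and 3.73 CPM, from 237, 19, 101, 626 and 140 UMIs. The 16 h library stood above all others and 4 h below all others, and 8 and 24 h could not be separated (log2 0.32, -0.06 to 0.70). The 16 h level was 2.98-fold that of fed (log2 1.57, 1.36 to 1.80), 6.25-fold that at 8 h and 5.01-fold that at 24 h. At 4, 8 and 24 h both libraries of the comparison with fed were under 10 CPM, with log2 ratios of -3.91 (-4.67 to -3.23), -1.07 (-1.42 to -0.73) and -0.75 (-1.06 to -0.44), so Fgf21 was not higher than fed in any fasted library but 16 h. The ratio was -2.88 for 4 h with 2 to 15% mitochondrial UMIs and -1.58 for 24 h in thinned cells.

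Detection of Fgf21 per cell was rare everywhere. The thinned share was 0.50%, 0.066%, 0.37%, 1.98% (16 h, 1.70 to 2.29) and 0.17%, and 2.89%, 0.37%, 3.24%, 6.30% and 2.75% unthinned. No cell in any library held more than 4 Fgf21 UMIs. Low-mitochondrial barcodes at 16 h gave 1.05% with an interval of 0.13 to 3.73 from 191 barcodes, so at 16 h the hepatocyte share could not be separated from theirs. At 0, 4, 8 and 24 h they gave 0.36%, 0.063%, 0% (interval to 0.704%) and 0.27%, with intervals that overlapped those of the hepatocytes. At 24 h the hepatocyte share was the lower value. In the 16 h library Fgf21 was at 20.4 CPM in low-mitochondrial barcodes (8.21 to 42.1, from 7 UMIs) and at 18.7 CPM in hepatocytes.

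Gdf15 (ENSMUSG00000038508, chr8:70629393-70632456, minus strand) was within 1.32-fold of fed at 4 and 8 h. Its level was 7.20, 7.66, 9.52, 14.3 and 2.55 CPM. The 16 h library was highest and 24 h lowest, and 0 and 4 h could not be separated (log2 0.09, -0.14 to 0.32). It was 1.99-fold above fed at 16 h (interval of the log2 ratio 0.78 to 1.22), just under the 2-fold line, and 2.82-fold below fed at 24 h with both libraries under 10 CPM. From 16 to 24 h it was 5.62-fold lower. Its thinned shares were 0.92%, 0.81%, 0.56%, 1.44% and 0.22% (3.28%, 6.70%, 9.39%, 4.95% and 1.90% unthinned), against 0.54%, 0.21%, 0.38%, 1.05% and 0.20% in low-mitochondrial barcodes. At 8 h the thinned and summed values pointed in opposite directions from fed, with a log2 ratio of 0.40 from all UMIs and -0.72 from thinned cells.

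Of the receptors, Klb, the beta-Klotho coreceptor of FGF21, was 16.6, 15.5, 12.8, 34.9 and 14.7 CPM at 0, 4, 8, 16 and 24 h. It was highest in the same library as Fgf21 and 2-fold or more above fed there (log2 1.07). Fgfr1, the main FGF21 receptor of fat tissue, stayed at 4.20 to 6.75 CPM, and Fgfr4, the main hepatocyte FGF receptor, at 14.8 to 22.0 CPM. Fgfr2 was 32.5, 16.5, 19.1, 52.7 and 27.2 CPM and Fgfr3 26.5, 11.5, 8.78, 16.2 and 10.2 CPM. Of 4 receptors tested, 1 was lower at 4, 8 and 24 h (Fgfr3), beside 6.04%, 11.2% and 8.77% of all genes tested. At 16 h 1 was higher (Klb), beside 2.87% of all genes. Gfral and Ret, the receptor pair of GDF15, had 0 UMIs in filtered barcodes of every library.

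Inhba (ENSMUSG00000041324, chr13:16011851-16031621, plus strand), the activin A subunit gene, was a fed-library gene like Angptl8. It overlaps Gm48444 and B230303A05Rik on the opposite strand and shares no exon with them. Its level was 116, 7.84, 7.89, 24.8 and 9.61 CPM. The fed library was highest, 16 h was second, and 4 and 8 h could not be separated (log2 0.01, -0.22 to 0.24). It was 14.7-fold below fed after 4 h (log2 -3.88, -4.04 to -3.72) and 14.6-fold below after 8 h (-3.87, -4.05 to -3.69). After 16 h it was 4.67-fold below (-2.22, -2.33 to -2.11), and after 24 h its log2 ratio was -3.59 (-3.75 to -3.43). The thinned share was 9.35% at 0 h (8.72 to 10.0) and 0.48%, 0.59%, 2.27% and 0.81% later (36.1%, 6.94%, 8.73%, 8.47% and 7.30% unthinned). Low-mitochondrial barcodes gave 2.36%, 0.13%, 0.19%, 1.57% and 0.16%. Their intervals overlapped those of the hepatocytes at 8 h (0.005 to 1.06 and 0.34 to 0.96) and 16 h (0.33 to 4.52 and 1.97 to 2.59). The Inhba level in hepatocytes of the fed library was 4.96-fold that in its low-mitochondrial barcodes (23.3 CPM), where Angptl8 stood at 1.21-fold.

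Inhbe (ENSMUSG00000047492, chr10:127348857-127354411, minus strand), the activin E subunit gene that is expressed mainly in hepatocytes, followed neither course. It overlaps the antisense gene Gm47200 outside its exons. Its level was 37.7, 10.3, 7.89, 46.8 and 28.6 CPM. The 0, 16 and 24 h libraries were high and 4 and 8 h low, with no overlap between these 2 sets. It was 3.64-fold below fed at 4 h (log2 -1.87, -2.02 to -1.71) and 4.77-fold at 8 h (-2.26, -2.45 to -2.07). At 16 h it was 1.24-fold above fed (0.31, 0.21 to 0.42) and at 24 h 1.32-fold below (-0.40, -0.51 to -0.28), both under 2-fold. The 24 h library was collected at the same clock hour as fed, and there the log2 ratio to fed was -3.59 for Inhba and -0.40 for Inhbe. Thinned shares were 3.48%, 0.94%, 0.52%, 4.43% and 2.43% (15.8%, 9.39%, 8.98%, 14.8% and 18.8% unthinned), and low-mitochondrial barcodes gave 0.79%, 0.19%, 0.38%, 2.09% and 0.32%.

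Inhbc, the activin C subunit gene of hepatocytes, was 104, 55.8, 37.3, 66.2 and 26.9 CPM, 2-fold or more below fed at 8 and 24 h (log2 -1.47 and -1.94). Fst, the activin-binding inhibitor follistatin, was 13.3, 3.43, 3.07, 21.7 and 2.55 CPM, with the low values at 4, 8 and 24 h. Acvr1, a type I receptor, was 22.4, 9.27, 5.06, 19.3 and 9.26 CPM. Of 7 tested genes of the 17 on this list, 2, 3, 0 and 3 were at least 2-fold below fed at 4, 8, 16 and 24 h. Of all genes tested, 6.04%, 11.2%, 3.60% and 8.77% were below. None on the list was above, beside 3.67%, 5.68%, 2.87% and 4.73% of all genes. The list median log2 was -0.64, -0.61, 0.25 and -0.49. Inhbb, the activin B subunit gene, was at 0.48 CPM or less, Inha had 0 UMIs, and Acvr1c, the activin E receptor of fat cells, was at 0.03 CPM at 16 h and 0 elsewhere.

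**Figure D2:**
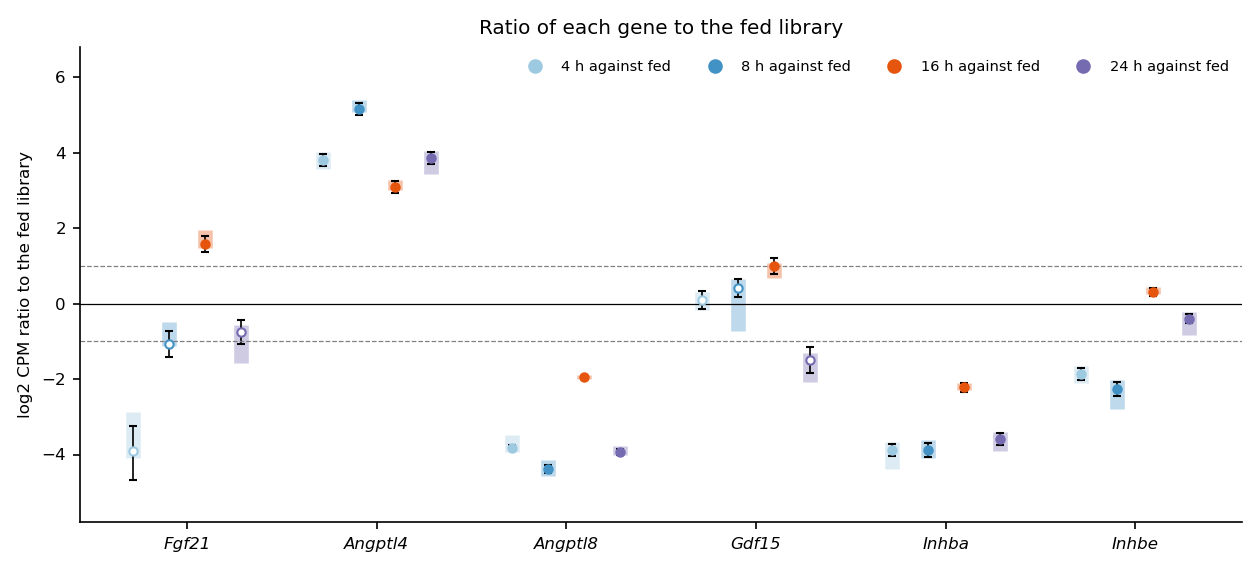
Log2 CPM ratio to the fed library (y axis) of each gene (x axis) at 4, 8, 16 and 24 h; points are the values, filled where a library reached 10 CPM, black bars are counting intervals, pale bands the range over 12 other ways of processing, and dashed lines mark 2-fold. Angptl4 is above the line at all 4 times, Angptl8 and Inhba below it at all 4, and Gdf15 at 8 h is the widest band that crosses 0 (-0.72 to 0.65).

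**Figure D3:**
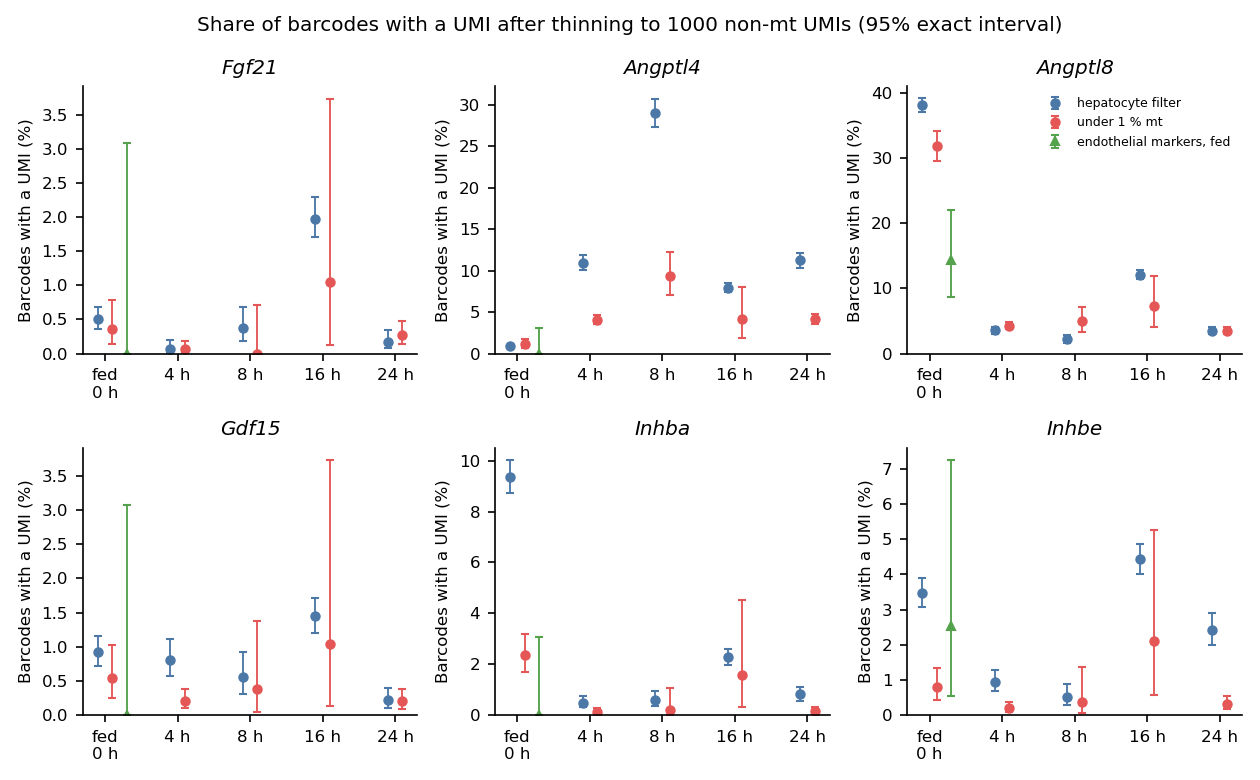
Share of barcodes with at least 1 UMI of each gene (y axis, percent) by library (x axis) after thinning to 1000 non-mitochondrial UMIs, with exact 95% intervals; blue is the hepatocyte filter, red barcodes under 1% mitochondrial UMIs and green endothelial-marker barcodes of the fed library. Angptl4 at 8 h (29.0% against 9.39%) and Inhba at 0 h (9.35% against 2.36%) stand clear of the low-mitochondrial barcodes, while Angptl8 at 4 and 24 h does not.

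The 0 and 16 h libraries, in which Angptl8, Inhba, Inhbe and Fgf21 were highest or second, also resembled each other in depth and in the summed level of 16 dissociation-stress genes (immediate-early and heat-shock genes), which was 819, 524, 337, 783 and 307 CPM. Of 12, 11, 12 and 11 genes of that list tested, 5, 7, 3 and 6 were at least 2-fold below fed at 4, 8, 16 and 24 h and 1, 0, 1 and 0 above, the list medians being -0.48, -1.56, 0.12 and -1.55. Of all genes tested, 6.04%, 11.2%, 3.60% and 8.77% were below and 3.67%, 5.68%, 2.87% and 4.73% above. The part of depth and of this list in the members' profile over libraries was not tested. Within libraries, cells were ranked by their share of these genes and cut into 3 equal bins, and the top bin was compared with the bottom bin. At 0 h Angptl8 was 473 against 544 CPM, Inhba 127 against 105 and Inhbe 36.7 against 39.9. Gdf15 was 5.87 against 9.36 CPM at 0 h, Angptl4 8.35 against 12.1 and Fgf21 6.16 against 6.01. At 16 h Inhbe was 37.2 against 53.4 CPM, Fgf21 18.3 against 20.4, Angptl8 137 against 120 and Inhba 29.3 against 22.2. Angptl4 was 85.0 against 75.2 CPM at 16 h and Gdf15 15.7 against 13.1. Inhba was also higher in the top bin at 4, 8 and 24 h (log2 0.48, 0.45 and 0.82), and its 8 h interval included 0. All of these differences were smaller than 2-fold. The top and bottom bins also differed in Cyp2e1 (872 against 2057 CPM at 0 h, 1287 against 3290 at 16 h) and in median depth (5783.5 against 3505 UMIs at 0 h, 3798 against 3304 at 16 h), and the part of zonation and depth was not tested.

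Cells of the 16 h library differed in acute-phase transcripts, and Fgf21, Inhbe and Gdf15 were higher in cells with more of them. This split into 3 equal bins by the share of Saa1, Saa2 and Saa3 UMIs (serum amyloid A genes) was chosen after values were seen. The top bin carried 20049 CPM of these transcripts and the bottom bin 353 CPM, at median depths of 4046 and 3648 non-mitochondrial UMIs. Inhbe was 57.8 CPM in the top bin and 35.8 in the bottom bin (log2 0.69, 0.51 to 0.88), and Fgf21 was 21.6 and 12.8 CPM (0.75, 0.45 to 1.06). Gdf15 was 15.3 and 11.6 CPM (0.40, 0.06 to 0.74). Angptl4 ran the other way at 71.6 and 96.1 CPM (-0.43, -0.56 to -0.29), as did Inhba at 19.6 and 24.5 (-0.32, -0.58 to -0.06). The bins also differed in zonation, with Cyp2e1 at 3253 against 1705 CPM and Cyp2f2 at 1238 against 1833, and the part of zonation in these differences was not tested. In the other libraries the split is not comparable, since the top bin held 1489, 4519, 150 and 96.0 CPM of these transcripts at 0, 4, 8 and 24 h and the bottom bin 743 CPM at 4 h and 0 elsewhere. There it gave Inhbe log2 ratios of -0.18, -0.30, -0.38 and 0.00 (0, 4, 8 and 24 h) and Fgf21 ratios of -0.21, -2.13, -0.54 and -0.35, all with intervals that included 0. For Gdf15 it gave -0.27, 0.20 and 0.01 at 0, 4 and 8 h, with intervals that included 0, and 1.02 (0.23 to 1.86) in the 24 h library. For Inhba it gave 0.15 (0.04 to 0.27), 0.49 (0.10 to 0.88), 0.24 (-0.19 to 0.68) and -0.42 (-0.80 to -0.05).

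**Figure D4:**
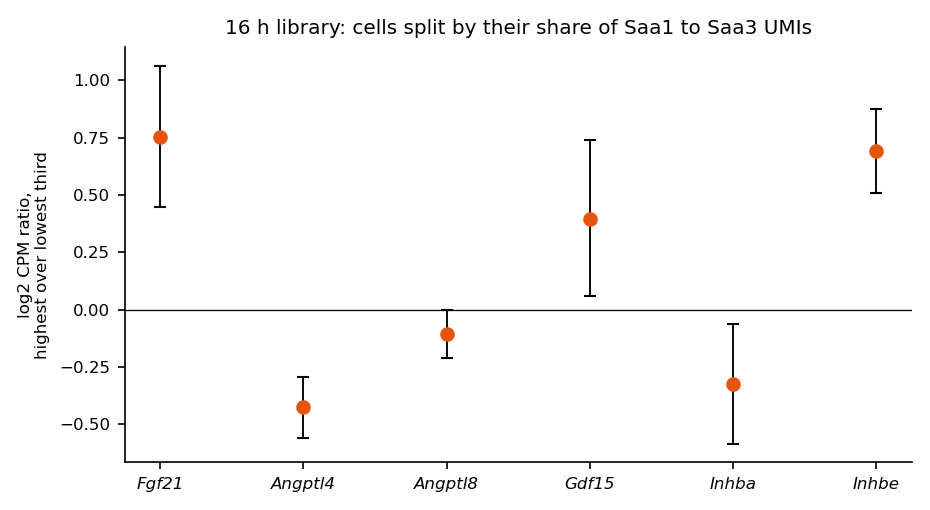
Log2 CPM ratio (y axis) of the top over the bottom of 3 equal bins of cells ranked by their share of Saa1 to Saa3 UMIs, for each gene (x axis) in the 16 h library, with 95% counting intervals. Fgf21 (0.75), Inhbe (0.69) and Gdf15 (0.40) lie above 0, and Angptl4 (-0.43) and Inhba (-0.32) below it.

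Position in the lobule was approximated by ranking cells within each library from high Cyp2f2, a periportal cytochrome P450, to high Cyp2e1, its pericentral counterpart, and cutting the ranking into 5 equal bins. The ranking was coarse at 8 and 24 h, where 55.4% and 60.8% of cells had no Cyp2e1 UMI, against 37.6%, 14.8% and 29.2% at 0, 4 and 16 h. First and last bins also differed in median depth, at 4587.5 against 2595 non-mitochondrial UMIs at 0 h and 13692 against 4386 at 4 h. At 8 h these medians were 12326.5 and 10460, and the part of depth in the ratios below was not tested. Sds, a periportal serine dehydratase gene that the ranking did not use, was lower in the Cyp2e1 bin than in the Cyp2f2 bin at 0, 4, 8 and 16 h (154 against 43.4 CPM at 0 h) but higher there at 24 h (644 against 400 CPM), so the 24 h values below are given as differences along the ranking, not as lobule position. Between the first and last bin, the members that differed at least 2-fold, with 10 CPM in either, were counted per library, and all of them were on the Cyp2f2 side. At 0 h they were 1 of 4 tested, against 4.11% of all genes (1.15% higher in the Cyp2f2 bin, 2.96% in the Cyp2e1 bin). The 4 h library gave 1 of 4 against 4.20% (1.97% and 2.23%), and the 8 h library 0 of 3 against 3.21% (1.30% and 1.91%). The 16 h library gave 2 of 6 against 4.23% (1.65% and 2.58%), and the 24 h library 1 of 4 against 9.53% (2.14% and 7.39%). Inhba was the gene at 0, 4 and 24 h, and Inhba with Angptl8 at 16 h. With 3 bins or a minimum of 50 CPM the count was 0 at 4 h and at 24 h, where Inhba was at 10.0 CPM, and 1 at 16 h.

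Inhba was higher at the Cyp2f2 end of the ranking in every library. The Cyp2f2 bin held 135, 10.0, 9.47, 34.3 and 10.0 CPM, and the Cyp2e1 bin 40.4, 2.37, 3.48, 8.27 and 3.52 CPM. The log2 ratios were 1.74 (1.53 to 1.95), 2.08 (1.32 to 2.94), 1.44 (0.68 to 2.27), 2.05 (1.61 to 2.51) and 1.51 (0.68 to 2.44), so all 5 intervals lay above 0. With no lower limit on mitochondrial UMIs the ratio was 2.33 at 8 h and 2.66 at 24 h. At 0 h the first 3 bins were alike (135, 135 and 136 CPM) and the level was lower in the fourth (101 CPM) and the last. Its log2 ratio to fed at 4 h was -3.74 in the Cyp2f2 bin (-4.03 to -3.47) and -4.09 in the Cyp2e1 bin (-4.92 to -3.36), and at 16 h -1.97 (-2.20 to -1.76) and -2.29 (-2.75 to -1.85), so the intervals of both bins overlapped.

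Inhbe, the other activin subunit gene, had the opposite slope at 0 and 16 h, and at 4 h under some settings only. The Cyp2f2 bin held 31.1 and the Cyp2e1 bin 57.1 CPM at 0 h (log2 -0.88, -1.13 to -0.63), 9.95 and 14.6 at 4 h (-0.56, -0.96 to -0.16, but 0.19 with 2 to 15% mitochondrial UMIs and 1.58 in thinned cells) and 39.5 and 69.9 at 16 h (-0.82, -1.05 to -0.59). At 8 h the ratio was -0.57 with an interval that reached 0.05, and -2.31 in thinned cells. At 24 h the ends could not be separated (32.5 and 30.2 CPM, log2 0.11, -0.21 to 0.43), and the ratio ran from -0.29 with the landmark score to 1.29 with 2 to 15% mitochondrial UMIs. Relative to the fed library at 24 h, Inhbe was lower in the Cyp2e1 bin (-0.92, -1.24 to -0.61) and not separable in the Cyp2f2 bin (0.06, -0.20 to 0.33). Glul, a marker of the cells around the central vein, was 396 CPM in the Cyp2e1 bin of the fed library and 50.3 CPM in that of the 24 h library. In the Cyp2f2 bin Glul was 155 and 58.1 CPM. Whether the bins of these libraries held the same cells was not tested.

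Angptl8 was lower in the last bin than in the first at 0 and 16 h, and flat or reversed at other times. At 0 h the 5 bins held 530, 516, 511, 530 and 376 CPM, so only the last bin stood lower (log2 of first over last 0.49, 0.42 to 0.57). At 16 h the outer bins held 147 and 69.5 CPM (1.09, 0.92 to 1.25). At 4 h the ratio was -0.09 (-0.32 to 0.15), in the 8 h library -0.60 (-0.98 to -0.23), and in the 24 h library 0.31 (-0.02 to 0.65). These are levels where its share of cells did not exceed that in low-mitochondrial barcodes. Angptl4 was nearly even, at 140 and 125 CPM at 4 h and 339 and 317 CPM at 8 h. At 24 h it was 164 and 97.8 CPM (0.74, 0.58 to 0.91), which ranged from 0.35 with the landmark score to 1.37 with 2 to 15% mitochondrial UMIs. The 24 h outer bins also differed in median mitochondrial share (19.5% against 8.88%) and depth (7969.5 against 2645 UMIs), whose part was not tested. Fgf21 was on the Cyp2f2 side at 0 h (0.87, 0.15 to 1.64) and 16 h (0.66, 0.23 to 1.09). At 8 h the ratio of the outer bins was 1.47 (0.09 to 3.09), and 0.37 when cells were cut into 3 bins. The 5 bins held 3.05, 2.77, 3.32, 4.57 and 1.10 CPM, from 19 UMIs in the first and 6 in the last, so the highest was the fourth. Gdf15 leaned to the Cyp2e1 side at 0 h (-0.61, -1.20 to -0.02), and its intervals included 0 at 4, 8, 16 and 24 h. Its 0 h ratio was -0.24 with the landmark score. In thinned cells it was -1.26 at 0 h and -1.99 at 8 h, where all UMIs gave 0.45.

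**Figure D5:**
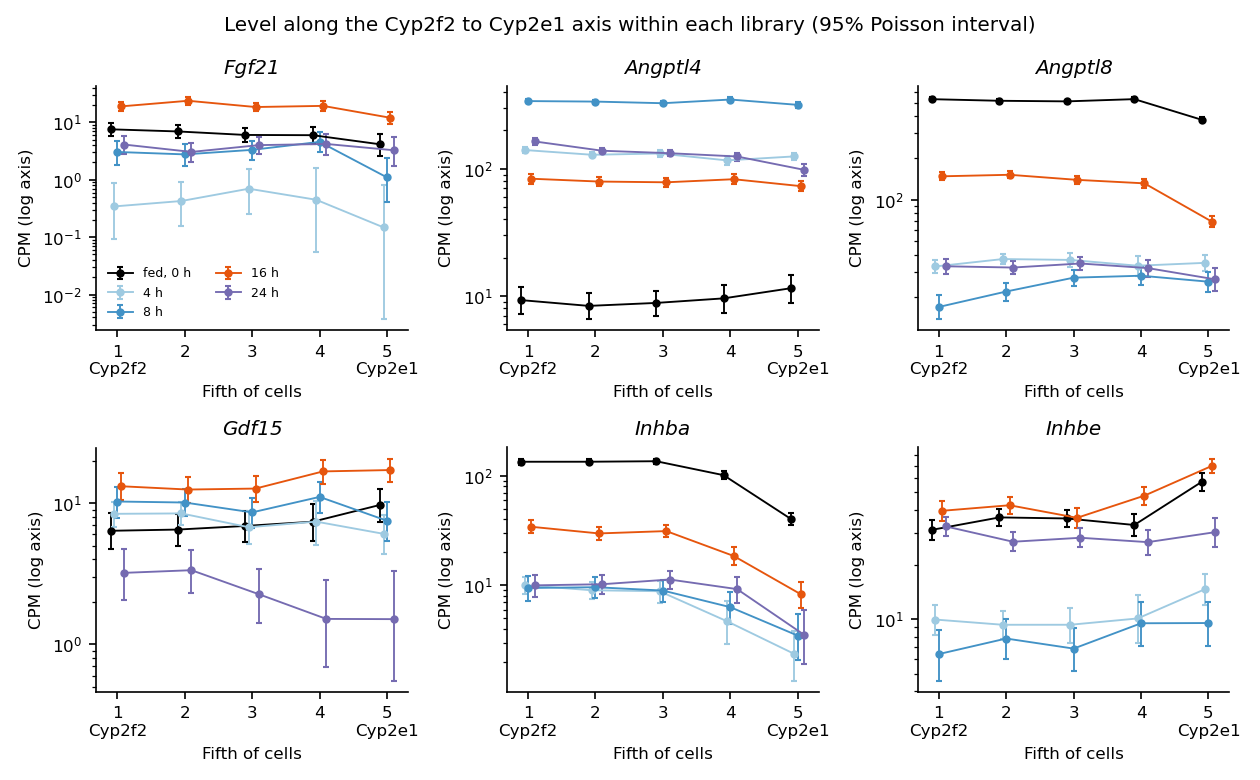
Level of each gene (y axis, CPM, log axis) in 5 equal bins of cells ranked from Cyp2f2 to Cyp2e1 within each library (x axis), with 95% Poisson intervals; colours are libraries. Inhba is lower in the last bin in all 5 libraries (40.4 against 135 CPM at 0 h), and Inhbe is higher there at 0, 4 and 16 h.

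Angptl8 and Inhba, each among the other's likest genes over libraries (below), were not found together more often than apart in fed cells. In thinned cells of the fed library, an Inhba UMI was found in 8.94% of the 2987 cells with an Angptl8 UMI (7.94 to 10.0) and in 9.61% of the 4839 cells without one (8.79 to 10.5). At 16 h Angptl4 was found in 10.7% of the 1090 cells with an Angptl8 UMI (8.96 to 12.7) and in 7.53% of those without (6.96 to 8.14). Inhbe was found in 3.09% of 713 cells with Angptl4 at 16 h (1.94 to 4.63) and in 4.55% of the others (4.11 to 5.02). Inhba and Inhbe shared 30 cells at 0 h, where Inhbe was found in 4.10% of Inhba cells (2.78 to 5.80) and 3.41% of the others. Inhba was found in 18.1% of the 72 cells with Gdf15 at 0 h (9.98 to 28.9) and in 9.27% of the others (8.64 to 9.94). Fgf21 was with Inhbe in 10 cells at 16 h, 5.62% of Fgf21 cells (2.73 to 10.1) against 4.41% of the others. Cells of 1 library share its depth and free RNA, so these shares are descriptions. Over all pairs and libraries, intervals did not overlap in either direction for Angptl4 with Angptl8 at 16 h, and for Fgf21 with Angptl8 at 4 h, the last from 2 cells. For Gdf15 with Inhba at 0 h they were apart in 1 direction only. Read the other way, Gdf15 was found in 1.78% of Inhba cells (0.95 to 3.02) and 0.83% of the others (0.63 to 1.07).

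Among 7701 genes with 10 CPM or more in at least 1 library, likeness to each member was measured as the root mean square difference of log2(CPM + 1) profiles over the 5 libraries, each centred on its mean. Angptl4 was most like Nlrp12 (0.19), Acot1 (0.51), an acyl-CoA thioesterase of fatty acid catabolism, and Mt1 (0.67), a metallothionein. Nlrp12 was 5.56, 101, 171, 46.1 and 84.6 CPM at 0, 4, 8, 16 and 24 h. Angptl8 was most like Pdia4 (0.27), a protein disulfide isomerase of the endoplasmic reticulum, then Inhba (0.31) and Tuba1c (0.49). Inhba was most like Tuba1c (0.29), Mid1ip1 (0.30), a regulator of lipogenesis, and Angptl8. Pdia4 was 937, 117, 57.2, 298 and 68.7 CPM.

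Inhbe was most like Msmo1 (0.24), a cholesterol synthesis enzyme, Sik1 (0.26), a salt-inducible kinase, and Actn1 (0.26). Msmo1 was 261, 121, 88.6, 396 and 240 CPM. Gdf15 was most like Cyp7b1 (0.20), Cyp2c67 (0.21) and Notum (0.21), at a median of 0.73 over all candidates. Fgf21 had no close match, with Mup14 (0.60), Lipg (0.62) and Sgk1 (0.64) nearest, and counts of Mup14, like those of Cyp2c67, are uncertain because close paralogs can share reads.

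Pathways known to control these genes were described by lists. The counts are to be read against the share of all genes tested that were at least 2-fold above fed at 4, 8, 16 and 24 h (3.67%, 5.68%, 2.87% and 4.73%) or below it (6.04%, 11.2%, 3.60% and 8.77%). Of 14 tested targets of ChREBP and SREBP1c, the sugar- and insulin-responsive factors of lipogenesis, 10, 9, 10 and 12 were at least 2-fold below fed at 4, 8, 16 and 24 h and 0, 1, 1 and 1 above, with list medians of -1.48, -1.47, -2.22 and -2.35. Fasn, fatty acid synthase, was 2021, 83.1, 93.8, 126 and 114 CPM, and Elovl6, a fatty acid elongase, 863, 61.4, 22.6, 69.4 and 59.0 CPM. Both were highest in the fed library by a wide margin, as Angptl8 and Inhba were. Pnpla2, the triglyceride lipase of fasting placed on this list, was the 1 gene above fed (28.6 to 133 CPM at 8 h).

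Of the PPAR-alpha targets, 1 of 17, 1 of 16, 6 of 18 and 7 of 17 tested were at least 2-fold above fed at 4, 8, 16 and 24 h, and 1 was below, at 8 h. As shares of the list those above were near the share of all genes at 4 and 8 h. Acot1 was 2.78, 43.4, 50.6, 31.7 and 31.5 CPM, while Acot3, its relative, was 7.81, 11.6, 6.21, 30.1 and 137 CPM. Acot1 was highest at 8 h, as Angptl4 was, and Acot3 at 24 h. Glucocorticoid targets were above fed in 6 of 11, 9 of 11, 4 of 9 and 6 of 10 tested, with list medians of 2.05, 1.89, 0.77 and 1.46. Mt2, a metallothionein gene on that list, was 27.1, 1839, 1716, 505 and 405 CPM. Dusp1, a phosphatase gene on it and on the dissociation list, was below fed at 4, 8 and 24 h (log2 -1.17, -1.56 and -1.80).

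Targets of ATF4, the factor of the integrated stress response that can drive Fgf21 and Gdf15, were counted in the same way. Of 9 tested at each time, 1, 2, 1 and 1 were above and 1, 1, 0 and 1 below fed, beside 9.71%, 16.9%, 6.47% and 13.5% of all genes changed either way, with medians of -0.15, 0.11, 0.07 and -0.06. Sesn2, a stress-induced regulator of nutrient signalling, was 2.65, 6.24, 8.99, 4.80 and 11.2 CPM. Ddit3, which encodes CHOP (taken as ENSMUSG00000025408, since the symbol occurs at a pair of identifiers), was 17.0, 7.66, 6.48, 11.5 and 7.13 CPM. Of 14 tested other hepatokines, 2, 3, 2 and 1 were above fed and 2, 3, 2 and 3 below, so 24 h held 1 of 14 above, beside 4.73% of all genes. Igfbp1, a binding protein of insulin-like growth factors, was 21.4, 276, 276, 117 and 62.6 CPM, and Manf, an endoplasmic reticulum stress protein, 626, 136, 59.6, 152 and 54.5 CPM. Lect2, a hepatokine, was 36.4, 48.8, 21.8, 37.9 and 7.66 CPM, and Rbp4, the retinol carrier, 4349, 6378, 6327, 3750 and 8588 CPM.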

How the data were processed

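Droplet single-cell libraries were deposited as 1 matrix of UMI counts per gene and barcode. Per the submitters' processing notes, the authors used Cell Ranger 6.0.1 and mm10; the counting of strand and the choice of 10000 barcodes per library are not given in the sources used here. Sample labels of the deposited counts were read from the table that assigns barcodes to libraries. Genes were matched by symbol; positions came from GENCODE M21 (GRCm38) and promoter windows from RefSeq. UMIs of filtered barcodes were summed per library and divided by non-mitochondrial UMIs (CPM). Intervals were exact Poisson (levels), Clopper-Pearson (shares) and conditional binomial (ratios) at 95%; UMIs are counts of captured molecules, so they cover counting error only. The axis ranked cells by log2 of (Cyp2f2 + 1)/(Cyp2e1 + 1) per 10000 UMIs. Low-mitochondrial barcodes had under 1% mitochondrial UMIs; endothelial-marker barcodes had 3 or more endothelial markers at 1% or more of UMIs. Named genes were all members, the 2 highest and 2 lowest tested genes of each list at 24 h, direct partners and the 3 likest genes; others were chosen after their values were seen. The list of lipases and their cofactors is not reported here as a list. Members and lists were chosen with earlier results of these data known. Call and interval functions were tested on simulated data. Python 3.11.15, scipy 1.17.1, R 4.3.3 and edgeR 4.0.16 (TMM factors) were used.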

Additional observations from a re-analysis of the deposited data

How the results depend on the processing

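No paired analysis was possible because each time has 1 library and no replicate can be left out or blocked. Across 12 settings of scaling, barcode filter, depth, summary and free-RNA subtraction, the log2 ratios to fed of Angptl4, Angptl8, Inhba, Inhbe and Fgf21 kept their sign at all 4 times; Gdf15 changed sign in 4 settings at 4 h and in 1 at 8 h (-0.72 in thinned cells). At 16 h Gdf15 passed 2-fold under TMM (1.06), median-of-ratios scaling (1.04), 2 to 15% mitochondrial UMIs (1.07) and subtraction of 10% free RNA (1.01), and was 0.67 in thinned cells. The numbers of members changed against fed stayed within 1.5 times throughout. The number of all genes changed at 4 h (709) was 1249 with 2 to 15% mitochondrial UMIs, and with a minimum of 50 CPM it was 345, 597, 220 and 516 at 4, 8, 16 and 24 h (709, 1250, 476 and 993 in the report); with no minimum it was 5787, 6616, 5162 and 6164. Along the axis, the number of members changed at 0 h (1) was 2 in thinned cells. At 4 h (1) it was 0 with 3 parts, with the landmark score (12 portal minus 14 central genes), with no lower limit on mitochondrial UMIs, with 2 to 15% mitochondrial UMIs and at 50 CPM, where Inhba stood at 10.0 CPM. At 8 h (0) it was 1 with the landmark score. At 16 h (2) it was 1 with 3 parts, with at least 3000 UMIs and at 50 CPM. At 24 h (1) it was 0 with 3 parts, with 3 or more UMIs of the axis pair, with at least 3000 UMIs and at 50 CPM, 2 with no lower mitochondrial limit and 3 with 2 to 15% mitochondrial UMIs. Inhba kept the Cyp2f2 side in every setting that gave a value, and Inhbe the Cyp2e1 side at 0, 8 and 16 h but not at 4 h, where 2 to 15% mitochondrial UMIs gave 0.19 and thinned cells 1.58. Of the values of single genes and shares under other settings, 147 moved and 436 did not; no member counted as changed reversed its sign, but ratios past 2-fold of genes under 10 CPM did, along the axis Fgf21 at 4 h (1.21 to -0.40 with no lower mitochondrial limit) and Gdf15 at 24 h (1.09 to -0.0016 in thinned cells), and against fed Inhbb at 24 h (-1.35 to 0.96 with at least 3000 UMIs). Causes were not tested. Leaving out endothelial-marker barcodes was added after the data were seen and changed no direction against fed. Fgf21 and Gdf15 rested on 19 to 626 UMIs per library.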
